A study of Mus musculus with 6 samples.

Results

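The 6 genes Col4a1 to Col4a6 encode the chains of type IV collagen, and all 6 were represented on the array, by 12 of its 45281 probes; the annotation names 19057 genes in all. The probes were taken by gene symbol from the platform annotation. The family itself was selected on results of the comparison between GFP-positive and GFP-negative cells, so its differences between these groups are given as a description, without p-values. The samples were 3 GFP-positive and 3 GFP-negative samples of PDGFRb+ Lin- cells (negative for CD31 and CD45) sorted from the epididymal fat depot of Zfp423-GFP reporter males, 5 weeks old, and each was run on 1 Illumina bead array. Both groups therefore came from reporter mice and passed the same gate, and were split by GFP fluorescence. The design text calls the triplicates biological. The sources used here do not say how many mice went into a sample. The p-values set a difference against the spread between these samples, as moderated by limma across probes. That need not be the spread between mice. The letters RG open the titles of GFP-positive replicates 1 and 2 and GFP-negative replicate 1, and KM those of the other 3.

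Collagen IV is the network-forming collagen of basement membranes. Its chains assemble inside the cell into triple helices, which join at their ends outside the cell into a sheet that carries laminin, nidogen and perlecan. The trimer of the α1 and α2 chains is found in nearly all basement membranes. The α3, α4, α5 and α6 chains form trimers of narrower distribution, known best from the kidney glomerulus, lung, cochlea and smooth muscle, and mutations in the human COL4A3, COL4A4 and COL4A5 genes cause Alport syndrome. In fat, collagen IV surrounds adipocytes and vessels, and stromal and endothelial cells produce it. Col4a1 and Col4a2 are called the common chains here and Col4a3 to Col4a6 the minor chains.

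Arrays of a group correlated at 0.982 to 0.990 over tested probes and arrays of different groups at 0.948 to 0.960, and median raw signals were 145.8 to 162.0. Pdgfrb, the sort marker, had log2 means of 10.72 ± 0.11 (SD, n = 3) in GFP-positive cells against 10.14 ± 0.11 (difference 0.58 ± 0.11 SE, limma adjusted p = 0.0172). Zfp423 differed by 0.12 ± 0.17 (limma adjusted p = 0.694). Of 8 stromal marker genes 7 were tested, and Ly6a had no probe. Of these, Pdgfrb alone passed as higher, and Dpt alone as lower (-0.42 ± 0.095 SE, limma adjusted p = 0.0293). Over all tested genes 8.65% were higher and 7.17% lower. The summed normalized signals of the tested stromal genes overlapped, at 78260 to 84570 in GFP-positive cells against 79620 to 85800. Of 8 leukocyte markers only Lyz2 and Csf1r were tested. Ptprc, which encodes CD45, was not tested. Pecam1, which encodes CD31, differed by -0.41 ± 0.23 (limma adjusted p = 0.291).

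The genes lie in 3 neighbouring pairs, Col4a1 with Col4a2 on chromosome 8, Col4a3 with Col4a4 on chromosome 1 and Col4a5 with Col4a6 on chromosome X (RefSeq, GRCm38.p6). The starts of 2 pairs are shown, since no promoter window was available for Col4a3 of the pair on chromosome 1. Whether these sequences bear on the differences between the groups was not tested. Each window runs from 250 bases before to 50 bases after the annotated start, 5′ to 3′ on the gene's own strand, and the promoter table matched 5 of the 6 genes, all but Col4a3. The Col4a1 window is chr8:11312777-11313076 on the minus strand and the Col4a2 window chr8:11312555-11312854 on the plus strand. Their starts lie 21 bases apart, and capitals mark the 78 bases that both windows hold, each as the reverse complement of the other.
Col4a1: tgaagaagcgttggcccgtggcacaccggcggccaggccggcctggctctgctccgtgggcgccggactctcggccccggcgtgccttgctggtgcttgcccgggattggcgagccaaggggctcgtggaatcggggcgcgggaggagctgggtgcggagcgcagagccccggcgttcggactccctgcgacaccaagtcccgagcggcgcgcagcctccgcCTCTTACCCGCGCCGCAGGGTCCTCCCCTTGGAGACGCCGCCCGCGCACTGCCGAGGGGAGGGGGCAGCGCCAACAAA
Col4a2: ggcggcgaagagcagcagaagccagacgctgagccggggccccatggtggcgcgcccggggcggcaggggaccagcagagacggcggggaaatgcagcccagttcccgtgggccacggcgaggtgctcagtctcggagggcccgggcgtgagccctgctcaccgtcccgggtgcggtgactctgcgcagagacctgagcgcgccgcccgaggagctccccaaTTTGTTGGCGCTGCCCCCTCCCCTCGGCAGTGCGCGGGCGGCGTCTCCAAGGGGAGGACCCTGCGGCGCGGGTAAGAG

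The Col4a6 window is chrX:141474027-141474326 on the minus strand and the Col4a5 window chrX:141475169-141475468 on the plus strand. Their starts lie 1343 bases apart, so the windows share no base. Capitals mark GC boxes.
Col4a5: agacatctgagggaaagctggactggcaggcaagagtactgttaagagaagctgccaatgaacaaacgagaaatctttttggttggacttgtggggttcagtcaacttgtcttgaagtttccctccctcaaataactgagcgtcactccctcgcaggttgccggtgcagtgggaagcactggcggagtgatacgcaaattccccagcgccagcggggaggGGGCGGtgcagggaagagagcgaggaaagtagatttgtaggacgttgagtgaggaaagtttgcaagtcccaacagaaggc
Col4a6: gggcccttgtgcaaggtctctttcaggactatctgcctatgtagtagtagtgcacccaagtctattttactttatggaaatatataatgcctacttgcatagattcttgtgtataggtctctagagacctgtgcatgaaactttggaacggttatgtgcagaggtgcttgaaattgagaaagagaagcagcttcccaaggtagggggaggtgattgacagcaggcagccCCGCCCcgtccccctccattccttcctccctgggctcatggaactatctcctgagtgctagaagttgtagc

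The common pair is the richer in CpG, with 37 CpG dinucleotides in the Col4a1 window and 33 in that of Col4a2, against 14 for Col4a4, 11 for Col4a5, 3 for Col4a6 and a median of 7 over all 32817 promoter windows. The motifs searched on both strands were GGGCGG (GC box), CCAAT and TATAAA, and no matches of different motifs overlapped in these windows. GGGCGG was in 4 of the 5 windows (all but Col4a4) and in 35.6% of all windows. CCAAT was in 3 of the 5 (Col4a1, Col4a2 and Col4a5) and in 37.4% of all. TATAAA was in none of the 5 and in 13.6% of all.

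Both common chains were detected on all 6 arrays, at signals close to the top of the scale. A probe was counted as detected on an array where its deposited detection p-value was under 0.01. Col4a1 (ILMN_2621643) gave raw signals of 31662, 30290 and 30684 in GFP-positive replicates 1 to 3 and 31576, 34208 and 33547 in GFP-negative replicates 1 to 3. It ranked between 4 and 27 among the 45281 probes of an array, whose brightest probe reached 35167 to 38405. After background correction and quantile normalization (neqc, log2) it read 14.88, 14.91 and 14.96 in GFP-positive cells, against 14.98, 15.03 and 14.98. These groups lay just apart after normalization but overlapped in raw signal. The difference, GFP-positive minus GFP-negative, was -0.079 ± 0.094 (SE).

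Col4a2 (ILMN_2822579) gave raw signals of 21690, 19907 and 22860 on the GFP-positive arrays against 22747, 24471 and 24764 on the others, at ranks of 104 to 176. Normalized, it read 14.42, 14.28 and 14.49 against 14.49, 14.54 and 14.54 (log2), with a difference of -0.13 ± 0.10. Its groups met at GFP-positive replicate 3 and GFP-negative replicate 1, both at 14.49. Probes this bright differed little between the groups whatever their gene: the 113 tested probes at least as bright as that of Col4a2 had differences of -0.43 to 0.52, and 1 of them passed the threshold, against 912 of the 5659 probes with a mean of 8 to 11, a comparison chosen after the values were seen. Whether such signals still follow the amount of RNA was not tested.

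**Figure D1:**
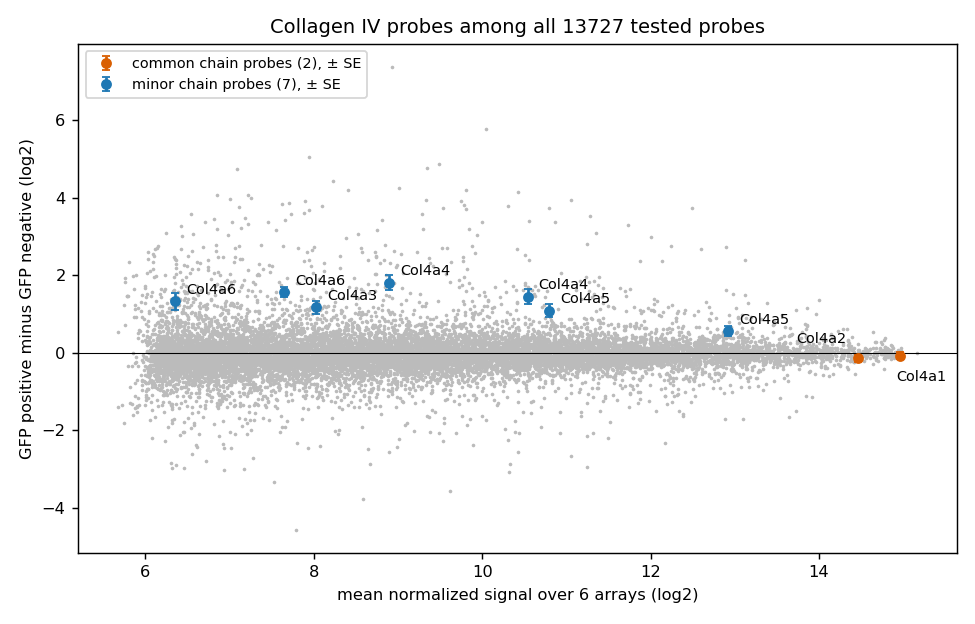
The difference between GFP-positive and GFP-negative cells (log2) is plotted against the mean normalized signal over 6 arrays (log2) for all 13727 tested probes (grey), with the 2 common chain probes in orange and the 7 tested minor chain probes in blue, with SE bars. The common chain probes lie at the bright end, where the grey cloud is narrow, and the minor chain probes lie above 0, from 0.55 to 1.81.

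The minor chains were dimmer on their probes and differed between the groups. Signals of different probes are not divided by each other here, since probes bind with different strength. All 4 minor genes had at least 1 probe detected on all 6 arrays, 6 probes in all. Of the 10 minor chain probes 7 were tested, that is, detected on at least 3 arrays in whichever group. Over all 10 probes there were 22 detections of 30 possible on GFP-positive arrays and 18 of 30 on GFP-negative arrays, against 12 of 12 for the common chains.

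Col4a3, the partner of α4 and α5 in the glomerular trimer, had a single probe (ILMN_1213850). Its raw signals were 518.9, 479.7 and 647.4 on the GFP-positive arrays against 318.1, 295.2 and 266.4 on the others. Every GFP-positive array stood above every GFP-negative one. Normalized means were 8.61 ± 0.27 (SD, n = 3) and 7.45 ± 0.19, a difference of 1.17 ± 0.17 (SE), or 2.24-fold. It was 0.78 without background correction, 0.89 among arrays with RG titles and 1.52 among those with KM titles.

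Col4a4, its neighbour on chromosome 1, had 3 probes. The brightest (ILMN_1228314) gave raw signals of 2815, 2128 and 3147 on the GFP-positive arrays against 1047, 872.5 and 1094 on the others. The second (ILMN_2983387) gave 925.4, 1103 and 1135 against 372.1, 308.3 and 440.2. On both, the GFP-positive arrays lay above all GFP-negative arrays, by a clear gap. The normalized differences were 1.45 ± 0.19 (2.72-fold) and 1.81 ± 0.20 (3.50-fold), the latter the largest of the family. The third probe (ILMN_2679871) was detected on GFP-positive replicate 2 alone, at a detection p-value of 0.00962, with replicate 3 just outside the limit at 0.0107, and was not tested. Its raw signals were 178.5, 226.2 and 206.0 against 165.9, 142.5 and 142.6, higher in every GFP-positive array but near background. Detection p-values were 0.062 on GFP-positive replicate 1 and 0.123 to 0.331 on the GFP-negative arrays, so its direction is not counted.

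Col4a5, whose chain joins both kinds of minor trimer, had 2 probes that lay on the same side and differed in size. The brighter (ILMN_2437848) gave raw signals of 10437, 8894 and 9648 on the GFP-positive arrays against 5766.5, 6287 and 7410 on the others. The other (ILMN_2734755) gave 3080, 2280 and 3072 against 1286, 1346 and 1318. Neither probe had overlapping groups. The normalized difference was 0.55 ± 0.14 (1.47-fold) on the brighter probe and 1.08 ± 0.16 (2.12-fold) on the other. Both are annotated to the same RefSeq transcript, and their positions on it were not used here.

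Col4a6, which pairs with α5 in smooth muscle basement membranes, had 4 probes, of which 2 gave signal. ILMN_1254059 gave raw signals of 510.2, 467.2 and 504.4 on the GFP-positive arrays against 228.9, 240.5 and 240.4 on the others. The difference was 1.56 ± 0.13, or 2.94-fold, with groups far apart. ILMN_2854065 gave 272.5, 235.0 and 312.8 against 176.5, 179.5 and 166.8. It was detected on all 3 GFP-positive arrays and on no GFP-negative array, so it entered the test through the group where it was higher, and its fold after background correction is a lower bound of at least 1.78-fold. The bound sets the mean of the GFP-positive arrays against the lowest level of detected probes on the GFP-negative arrays, or the probe's own value where higher. Without background correction these differences were 0.94 and 0.53. The last 2 probes (ILMN_1252184 and ILMN_1231256) were detected on no array, with raw signals of 129.1 to 158.5. Their normalized differences were -0.1 and 0.096, which are not read at background. ILMN_1231256 is annotated to a different transcript record from the other 3.

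**Figure D2:**
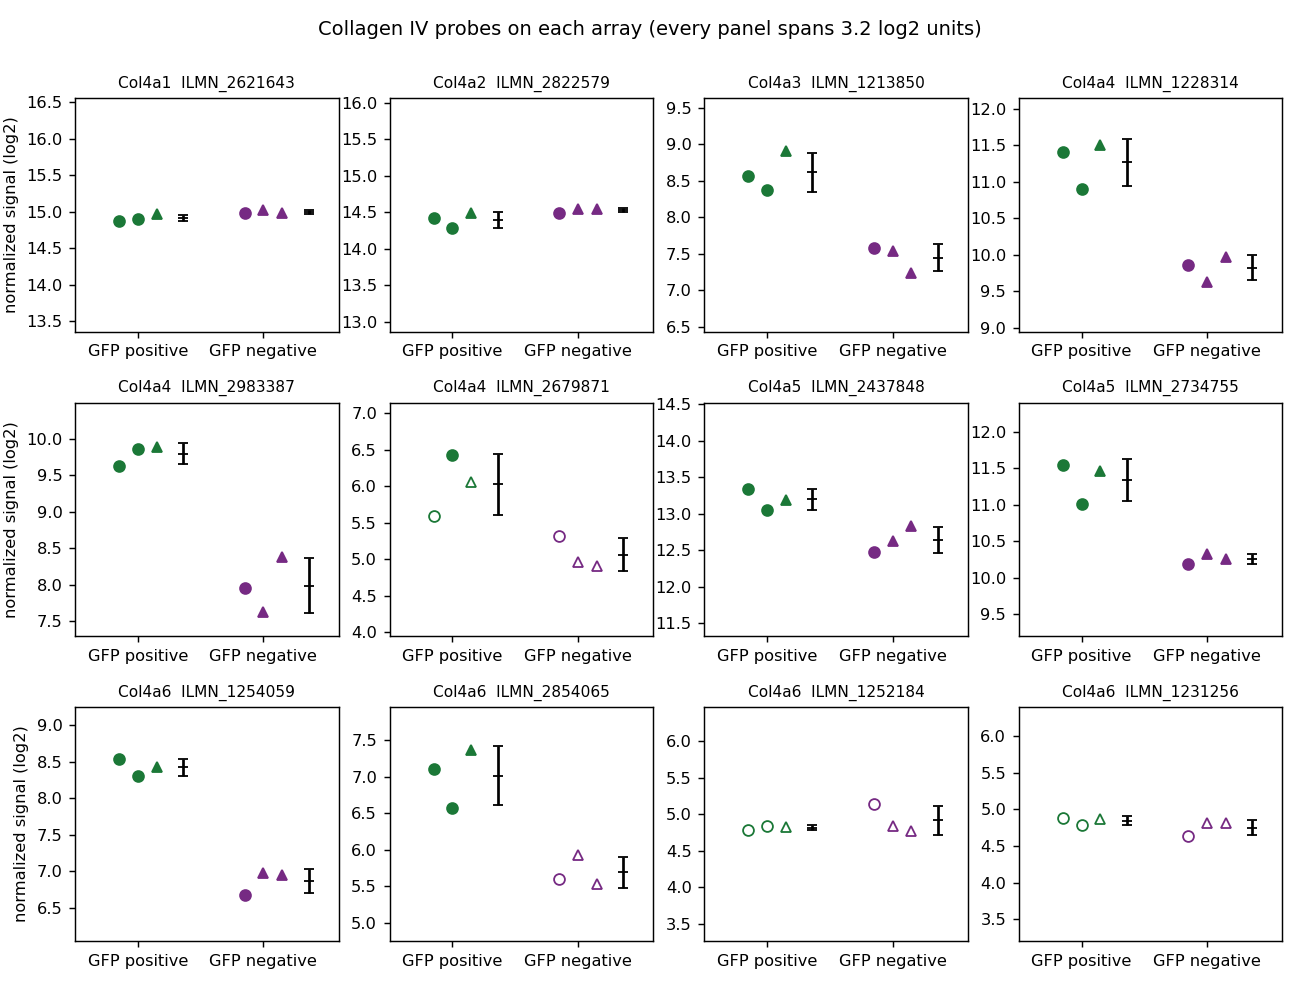
Normalized signal (log2) of all 12 collagen IV probes in the 3 GFP-positive (green) and 3 GFP-negative (purple) arrays, circles for RG and triangles for KM titles, filled where detected, with the mean and SD (n = 3) in black beside each group. Each panel spans the same number of log2 units: Col4a1 and Col4a2 are nearly level, and the tested probes of Col4a3, Col4a4, Col4a5 and Col4a6 are higher in GFP-positive cells.

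Seen side by side, the 7 tested minor chain probes differed by 0.55 to 1.81, with a median of 1.32 (1.17 with the Col4a6 probe that was undetected in GFP-negative cells at its bound), against -0.079 and -0.13 for the common chains and a median of -0.046 over all 13727 tested probes. Each of the 7 lay above all GFP-negative arrays in every GFP-positive array, as 15.8% of all tested probes did. Of the common chain probes, Col4a1 had every GFP-positive array below, as 20.5% of probes did. All 7 minor chain probes passed limma's adjusted threshold of 0.05 as higher, and 7.85% of all tested probes did. Neither common chain probe passed it as lower, as 7.77% of all did. Since the family was proposed with this comparison known, nothing is read from these counts. The call of the brighter Col4a5 probe ended under 10 of 15 alternatives, among them those without GFP-positive replicate 1 (a difference of 0.48), 2 (0.62) or 3 (0.56) and without GFP-negative replicate 1 (0.47) or 2 (0.54). The other 6 kept theirs under every alternative that tested them. Among these 6 is the Col4a6 probe that was tested only because of the group where it read higher. The alternatives re-use the same 6 arrays, so nothing is read from the calls that were kept.

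The arrays of a group lay close together in this respect. The mean deviation of the minor chain probes from their own 6-array means was 0.71, 0.41 and 0.79 in GFP-positive and -0.69, -0.65 and -0.57 in GFP-negative replicates 1 to 3. That of the common chain probes was -0.061, -0.12 and 0.021 against 0.028, 0.078 and 0.051. GFP-positive replicate 2 was the lowest of its group in both sets. The minor chains' mean difference minus that of the common chains was 1.38, or 1.37 for RG titles alone and 1.45 for KM titles alone, and 1.04 when background correction was left out. The minor chain values here include the Col4a6 probe that was undetected in GFP-negative cells, at its own signal and not its bound. With only probes detected on all 6 arrays the difference between the sets was 1.37. Both common chain probes are among the 113 bright probes of which 1 passed the threshold. Whether the difference between the sets follows the amounts of RNA was not tested.

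**Figure D3:**
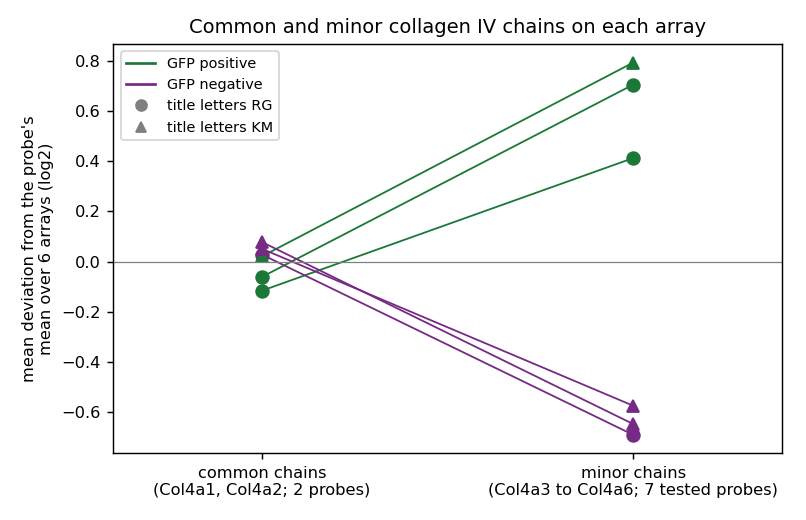
Mean deviation (log2) of the 2 common chain probes and of the 7 tested minor chain probes from each probe's own mean over 6 arrays, with 1 line per array (green GFP-positive, purple GFP-negative; circles RG, triangles KM titles). All arrays lie between -0.12 and 0.078 for the common chains, while for the minor chains GFP-positive arrays lie at 0.41 to 0.79 and GFP-negative arrays at -0.69 to -0.57. The minor chain probes include the Col4a6 probe that was undetected on every GFP-negative array. The common chain probes are among the bright probes, where differences were small whatever the gene.

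In these sorted bulk samples fewer cells of a type and less RNA per cell cannot be told apart. Markers of mural cells (pericytes and vascular smooth muscle) moved in the same direction as the minor chains. Of 10 listed genes 7 were tested and 6 were higher in GFP-positive cells, and none lower. Over all tested genes 8.65% were higher and 7.17% lower. The summed normalized signals of the tested mural genes were 8383 to 12660 against 4592 to 6146. Acta2 and Des, the brightest, weigh most in these sums and were 1.93-fold and 1.71-fold higher. Of the 6, Abcc9 and Kcnj8 were detected on no GFP-negative array and so were tested only because of the group where they read higher. Rgs5, Cspg4 and Tagln, which define these cells, were detected on too few arrays to be tested. Of 10 endothelial markers 8 were tested and only Tek passed, as lower. Their sums were 4976 to 5689 in GFP-positive cells against 11050 to 12160, and 1895 to 2331 against 1988 to 2250 without Tek, left out after its value was seen. Kdr and Tie1 were detected on too few arrays to be tested. The leukocyte genes Lyz2 and Csf1r were detected on all 3 GFP-positive arrays and on no GFP-negative array, which is how they came to be tested. They read at least 6.96-fold and at least 2.42-fold higher, with sums of 521.6 to 839.1 against 97.16 to 105.6, the latter not above background, while Ptprc, Adgre1, Itgam and Cd3e were below the detection filter. Among genes of the glomerular podocyte, Nphs1 was below that filter too, and Podxl, detected on all 6 arrays, had means of 6.99 against 7.46 and did not pass. Mesothelial markers had 3 of 8 tested, with sums of 534.6 to 2395 against 666.7 to 844.1, and no call. The Schwann cell gene Mbp, the only 1 of 5 tested, was higher (3.44-fold; limma adjusted p = 0.00393), at 245.4 to 335.2 against 62.57 to 116.4. The 2 tested adipocyte genes of 6 gave sums of 569.3 to 856.1 against 284.4 to 433.4, and neither passed. The part of any of these cells in the collagen IV differences was not tested.

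The profiles most like those of the common chains over the 6 arrays were nearly flat. The likeness was the root mean square difference between centred log2 profiles. For Col4a1 the nearest of all tested genes were Prkar1a (0.0171), Hspa8 (0.0192), Rragc (0.0208), Zmym2 (0.0230) and Sin3b (0.0289). For Col4a2 they were Scaf8 (0.0201), Litaf (0.0221), Extl2 (0.0237), Eif1a (0.0249) and Eif5 (0.0277). All 10 had small differences between the groups, from -0.15 to -0.055. This follows from choosing them by likeness to nearly flat profiles, so nothing is read from it. Col4a1 and Col4a2 themselves lay 0.0618 apart, which made Col4a2 the 179th nearest gene to Col4a1 and Col4a1 the 121st nearest to Col4a2.

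The genes that process, anchor, bind and cut collagen IV were read from the same fit, each by its brightest tested probe, in 5 lists. Over all 8819 tested genes 8.65% were higher in GFP-positive cells and 7.17% lower at the adjusted threshold. Among 17 tested genes for chain folding and modification 3 rose and none fell, with a median difference of 0.19. Crtap, a partner of prolyl 3-hydroxylase in the endoplasmic reticulum, rose by 0.63 ± 0.10 (SE; limma adjusted p = 0.00883). P3h2, a prolyl 3-hydroxylase that modifies collagen IV in mice, was detected on 3 GFP-positive and no GFP-negative arrays, so it was tested only because of the group where it read higher. Its fold after background correction was bounded below at 1.39 (limma adjusted p = 0.0169), and its fitted difference of 0.82 became 0.30 without that correction. Its call ended without GFP-positive replicate 2 (limma adjusted p = 0.0517) or GFP-negative replicate 3 (0.0586). P3h3 rose by 0.41 ± 0.10 (limma adjusted p = 0.0386). That call ended without any 1 of the 6 arrays (limma adjusted p of 0.0802 to 0.0999) and with median scaling (0.0972). It also ended with the replicate numbers as a block (limma adjusted p = 0.0961), with detection on at least 1 array (0.0517) and with no detection filter (0.0523). The abundant helpers did not pass: Serpinh1, the collagen chaperone HSP47, differed by 0.12 ± 0.09 (limma adjusted p = 0.453), P4hb, a subunit of prolyl 4-hydroxylase, by -0.006 ± 0.11 (limma adjusted p = 0.979), and Sparc, which binds collagen IV, by 0.11 ± 0.12 (limma adjusted p = 0.583). Another probe of Sparc did pass, as higher. With median scaling the Serpinh1 and Sparc differences turned to -0.023 and -0.035. These 3 probes lay among the bright ones, where differences were small.

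Crosslinking enzymes gave 2 rises among 5 tested genes and no fall. Lox, which oxidises lysines of collagens and elastin, rose 2.23-fold (1.16 ± 0.15 SE; limma adjusted p = 0.00340). Tgm2, a transglutaminase, rose by 0.41 ± 0.10 (limma adjusted p = 0.0333). That call ended without any 1 of the 6 arrays (limma adjusted p of 0.0694 to 0.101) and with median scaling (0.121). It also ended with the replicate numbers as a block (limma adjusted p = 0.0978). Pxdn, the peroxidase that forms the sulfilimine bonds between collagen IV trimers, differed by -0.14 ± 0.17 (limma adjusted p = 0.625).

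Of 15 tested basement membrane partners 3 rose and 2 fell, with a median of -0.021. The largest change was that of Lamc3, the laminin γ3 chain, which read 9.61, 10.24 and 10.28 on the GFP-positive arrays against 7.22, 6.94 and 6.83 on the others. It rose 8.27-fold (3.05 ± 0.21 SE; limma adjusted p = 0.000294), and its second tested probe passed too. Fbln1, the matrix protein fibulin-1, rose by 0.61 ± 0.10 (limma adjusted p = 0.00905), with all 5 of its tested probes past the threshold and a difference of 1.02 for their mean. Lamb2, the laminin β2 chain, rose by 0.48 ± 0.09 (limma adjusted p = 0.0172). Lamb1, the β1 chain, fell by 1.05 ± 0.10 (limma adjusted p = 0.00110), from 11.57 to 10.52. Lama4, the α4 chain of vessel laminin, fell by 0.88 ± 0.20 (limma adjusted p = 0.0280) and was detected on 1 of 3 GFP-positive arrays. Without background correction the Lama4 difference was -0.35 (limma adjusted p = 0.0351). The Lamb2 call ended without GFP-positive replicate 1 (limma adjusted p = 0.0511) or GFP-negative replicate 2 (0.0545) or 3 (0.0681), and with median scaling (0.0869). It also ended with the replicate numbers as a block (limma adjusted p = 0.0688). The Lama4 call ended without GFP-positive replicate 2 (limma adjusted p = 0.0505) or GFP-negative replicate 1 (0.0606), 2 (0.0805) or 3 (0.0956). It also ended with the replicate block (limma adjusted p = 0.0694) and with no detection filter (0.0772).

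The partners that tie laminin to the collagen IV sheet did not pass. Nid1 differed by -0.43 ± 0.14 (limma adjusted p = 0.0824) and Nid2 by -0.28 ± 0.15 (limma adjusted p = 0.256), both being nidogens. The Nid1 difference passed without GFP-positive replicate 1 (-0.56, limma adjusted p = 0.0409), without background correction (0.0405), with the authors' table (0.0406) and with the intensity trend (0.0202). The dimmer second probe of Nid1 lay on the opposite side, at 1.06 (limma adjusted p = 0.119), and the mean of both probes at 0.31 (limma adjusted p = 0.432). Hspg2, which encodes perlecan, differed by -0.070 ± 0.10 (limma adjusted p = 0.698), and Lamc1, the common laminin γ1 chain, by -0.052 ± 0.092 (limma adjusted p = 0.749). The second tested probe of Lamc1 did pass, in the same direction, and the mean of both probes gave -0.48 (limma adjusted p = 0.0242). The brightest Lamc1 probe lay among the bright ones, where differences were small.

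None of 6 tested receptors passed the adjusted threshold in limma, and 2 had an unadjusted p under 0.05. The largest difference was that of Itga3, the integrin α3 subunit, named after its value was seen: 1.13 ± 0.31, or 2.18-fold, with groups apart (limma adjusted p = 0.0517). In 7 of 16 alternatives 1 receptor passed as higher, among them that without GFP-negative replicate 1. Itgb1, the β1 integrin subunit, differed by -0.23 ± 0.10 (limma adjusted p = 0.160), and Ddr2, a collagen receptor kinase, by -0.60 ± 0.37 (limma adjusted p = 0.313). Itga1, the α subunit of the main collagen IV integrin, was not tested for lack of detection. Of 7 tested proteases and inhibitors 2 rose. Mmp3, stromelysin 1, rose 10.3-fold (3.37 ± 0.21 SE; limma adjusted p = 0.000186), and Timp1, a tissue inhibitor of metalloproteinases, 3.33-fold (1.74 ± 0.13; limma adjusted p = 0.000405). Mmp2, the gelatinase that also cuts collagen IV, differed by -0.026 ± 0.10 (limma adjusted p = 0.893). Its probe lay among the bright ones, where differences were small.

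**Figure D4:**
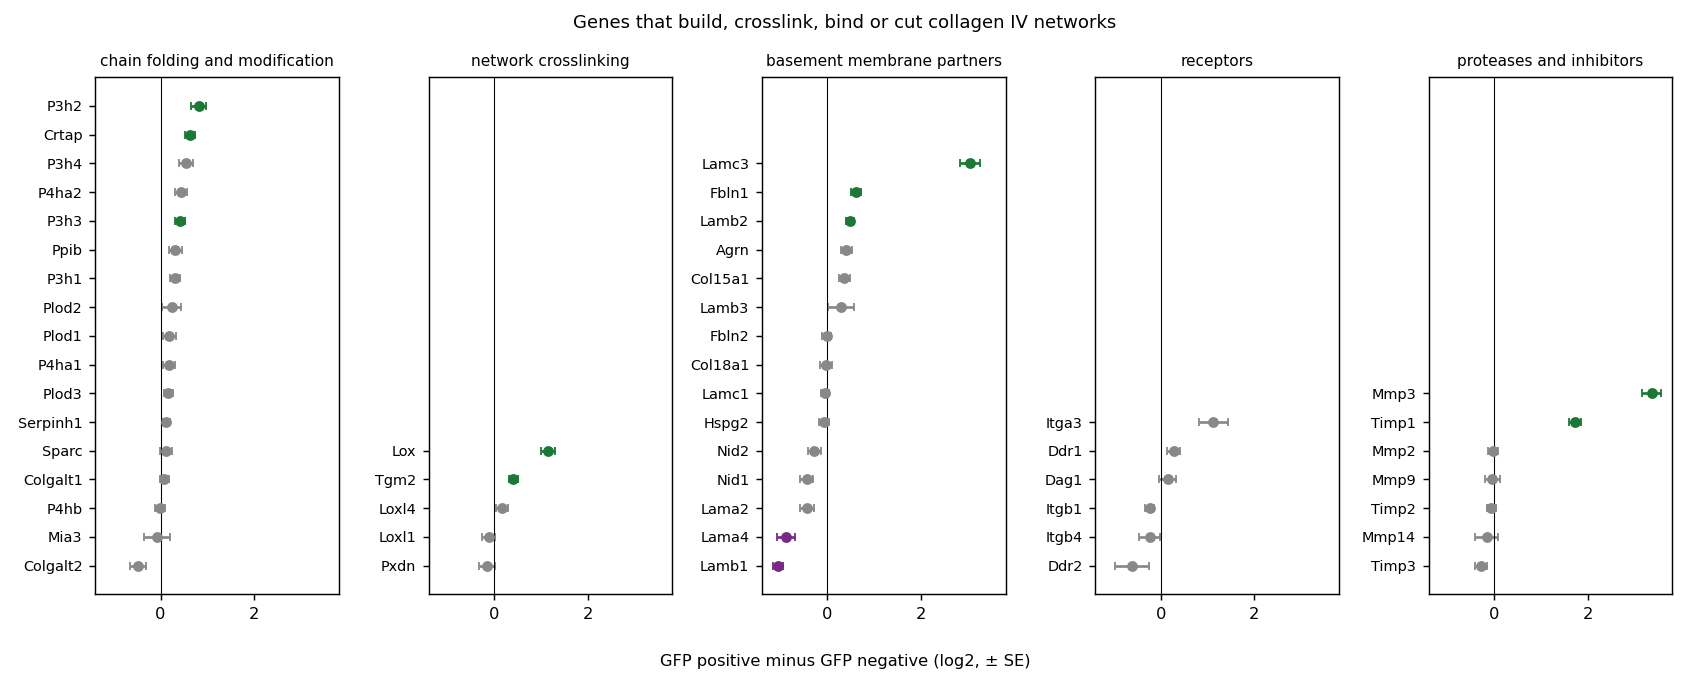
Differences between GFP-positive and GFP-negative cells (log2, with SE bars) for the tested genes of the 5 lists, each by its brightest tested probe: green passed the adjusted threshold as higher, purple as lower, and grey did not pass. Lamc3 (3.05) and Mmp3 (3.37) stand farthest to the right and Lamb1 (-1.05) farthest to the left.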

How the data were processed

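Total RNA of sorted mouse cells was amplified in 2 rounds, labelled with biotin and hybridised to Illumina 1-colour bead arrays, per the labels' protocols. The authors deposited probe signals on a linear intensity scale, not normalized, and the file headers show a detection p-value beside each. GenomeStudio is named in the submitters' processing notes, without a version. The authors also deposited a quantile-normalized table of these intensities, which served as an alternative.

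Signals were corrected and normalized with neqc in limma 3.58.1 (R 4.3.3; normexp from the detection p-values, offset 16, quantile, log2). A probe was tested where 3 or more arrays had a detection p under 0.01, which left 13727 probes of 8819 genes. The fit used lmFit and eBayes, and 2-sided p-values were adjusted by Benjamini-Hochberg across the whole tested table. The procedure was tested on simulated log2 values with independent normal noise. These had no background floor, no upper limit of signal and no title-letter structure, so that test does not bear on such effects. The number of arrays limits the precision. Of the 45281 probes, 34885 had 1 gene symbol, 18 several and 10378 none. The family, the lists and the tests were chosen with earlier results of these data known. Named were all probes of the family, up to 6 called members per pathway list, a fixed set of basement membrane, sort and processing genes, and the 5 genes nearest in profile to each common chain. The alternatives were the second table, omission of background correction, scaling to the median, 3 other detection filters, the title letters or the replicate numbers as a block, each array left out, eBayes with trend and robust settings, the mean over a gene's probes, values within title letters, and a detection limit of 0.05. Promoter windows and names are RefSeq's (GRCm38.p6); no gene coordinates came from the array files.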

Additional observations from a re-analysis of the deposited data

How the results depend on the processing

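The minor chains' mean difference stayed above 0 under all 17 alternatives and that of the common chains below 0. That minor chain mean includes the Col4a6 probe undetected in GFP-negative cells, except where detection on all 6 arrays was required (1.268). The alternatives re-use the same arrays, and the family was chosen on this comparison, so their agreement adds no support. The common chains' mean was -0.104, with SEs of 0.094 and 0.10 on the 2 probes. Over all tested probes the median was -0.046, or -0.088 with median scaling. No decrease of the common chains is read from the sign. The authors' normalized table and no background correction gave the same values to the digits shown: a median over the family's 9 tested probes of 0.777 (main 1.165), a minor chain mean of 0.932 (main 1.276) and a minor minus common difference of 1.036 (main 1.380). Median scaling gave -0.266 for the common chains (main -0.104) and 1.513 for minor minus common. Within the KM arrays the family's median was 1.468 and the common chains' mean -0.043. Leaving out single arrays gave 1.021 to 1.288, 1.198 to 1.388, -0.141 to -0.072 and 1.339 to 1.461 for the family's median, the minor mean, the common mean and their difference. The 2144 probes past the threshold became 1065 to 1759 without 1 array (1065 without GFP-negative replicate 2, 1143 without GFP-negative replicate 3). The count of pathway genes past it, 12 in the main setting, was 8 to 11 without 1 array and 19 with the authors' table, no background correction or the intensity trend. With the replicate block 1421 probes passed, and 8 pathway genes. Signs turned only in uncalled pathway genes: P4hb (main -0.006) ranged from -0.069 to 0.042 and Mmp2 (main -0.026) from -0.077 to 0.030 without single arrays, Serpinh1 turned to -0.023 and Sparc to -0.035 with median scaling, and Nid1 to 0.313 as the mean of its probes. The replicate numbers were not taken to pair the samples, since no label says that they mark a shared animal or day. Deviations of same-numbered arrays correlated at -0.070, -0.20 and 0.075. Across groups, arrays with the same title letters correlated at -0.07 to 0.253 and those with different letters at -0.202 to 0.05. The main fit had no block for the letters. With a detection limit of 0.05 the minor chains had 42 detections of 60 in place of 40. Where a call or value changed with a setting, the cause was not tested.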
